A study of Arabidopsis thaliana with 17 samples.

Results

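The 4 genes described here encode helpers of the cytosolic chaperones HSP70 and HSP90 and a heat acclimation protein. Each was chosen by name, with earlier results of these data known, and read through a fixed probe set of an Affymetrix array. They are Hop3 (AT4G12400), Fes1A (AT3G09350), ROF2 (AT5G48570, listed on the array by its locus) and HSA32 (AT4G21320). Each locus had 1 probe set among those with a single gene, so the members make up 4 of the 22746 probe sets tested.

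HSP70 and HSP90 fold and refold proteins in the cytosol, and they work in a relay that depends on co-chaperones. Hop proteins, built of tetratricopeptide repeats, bind HSP70 and HSP90 at the same time and pass client proteins between them, and Hop3 is a member of the Arabidopsis family known to be strongly induced by heat. Fes1A is an armadillo-repeat protein that binds cytosolic HSP70. ROF2, also called FKBP65, is an FKBP-type peptidyl-prolyl isomerase with tetratricopeptide repeats, and its close relative ROF1 binds HSP90 and has been linked to the activity of HSFA2. HSA32 is a plant-specific heat-induced protein that Arabidopsis needs to keep acquired thermotolerance over a long recovery. HSFA2 is a heat-induced transcription factor known for sustaining the expression of heat shock genes.

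Whole seedlings of Arabidopsis thaliana, grown with 16 h of light a day at 22 °C, were profiled at 7 d of age in the hsfa2 knockout line SALK_008978 and in its wild type Col-0. The hsfa2 line was represented by 2 arrays of primed and triggered, 2 of triggered and 2 of naive seedlings, and the wild type by 3 arrays of primed and triggered, 3 of triggered, 2 of primed and 3 of naive seedlings. Heat was always 1 h at 37 °C. Naive seedlings received none, primed seedlings were heated when 4 d old and left to recover for 3 d, triggered seedlings got their heat at 7 d, before collection, and seedlings labelled primed and triggered were heated at both times. Arrays of the same group are biological replicates per the sample titles, the mutant is a single insertion line, and hsfa2 seedlings that were primed only are not analysed here.

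Values are log2 intensities of the authors' RMA summary, a scale on which 1 unit is a doubling, and levels of different probe sets are not compared with each other. Differences between groups were tested with limma over all 22746 probe sets at once and called at a Benjamini-Hochberg adjusted p under 0.05. Array medians lay between 51.8 and 58.9 intensity units on the 10 arrays heated before collection and between 60.1 and 64.2 on the other 7. The bacterial hybridisation control bioB read 4.40 to 4.43 (log2) on 3 arrays, namely both primed arrays and wild-type naive replicate 3, against 6.98 to 8.14 on the other 14. The whole-seedling label was read against marker genes: the photosynthesis genes RCA and PRK stood at group means of 12.13 to 13.79, and PRK was lower after triggering in both genotypes, with a change of −0.79 in hsfa2 and −0.74 in the wild type. The root genes PYK10, EXPA7 and EXPA18 were also lower after triggering in both genotypes, with a median change of −1.30 in the wild type. The part of these shifts in the results below was not tested. Of 4 seed storage genes none had a probe set with a single gene, and neither did HSFA2, so the loss of the targeted transcript could not be read.

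All 4 genes read higher on every array of seedlings heated just before collection than on every array of seedlings that were not. Of all probe sets, 13.8% lay wholly higher in triggered than in naive wild-type seedlings, and 32.6% did in hsfa2. The share with all heated above all unheated arrays was not computed. Hop3 read 12.50 and 12.54 in hsfa2 primed and triggered seedlings, 12.39 and 12.44 in hsfa2 triggered seedlings and 4.30 and 4.49 in hsfa2 naive seedlings. In the wild type it read 12.41, 12.83 and 12.74 in primed and triggered seedlings, 12.65, 12.49 and 12.62 in triggered seedlings, 5.17 and 7.28 in primed seedlings and 4.59, 5.19 and 5.88 in naive seedlings. The 10 heated arrays lay together, whereas primed replicate 2 stood above the remaining unheated arrays, and the lowest heated array exceeded the highest unheated one by 5.11 log2 units.

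Fes1A read 12.86 and 12.80 in hsfa2 primed and triggered seedlings, 12.79 and 12.89 in hsfa2 triggered seedlings and 6.20 and 6.04 in hsfa2 naive seedlings. In the wild type it read 12.81, 12.78 and 12.83 in primed and triggered seedlings, 12.90, 12.81 and 12.86 in triggered seedlings, 6.42 and 7.24 in primed seedlings and 6.69, 6.64 and 5.98 in naive seedlings. Every heated group overlapped every other, and the gap between the lowest heated and the highest unheated array, 5.54, was the widest of the 4 genes.

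ROF2 read 13.12 and 13.05 in hsfa2 primed and triggered seedlings, 13.10 and 13.19 in hsfa2 triggered seedlings and 5.67 and 5.52 in hsfa2 naive seedlings. In the wild type it read 12.86, 13.22 and 13.18 in primed and triggered seedlings, 12.91, 13.09 and 13.12 in triggered seedlings, 6.31 and 8.68 in primed seedlings and 5.70, 5.56 and 6.62 in naive seedlings. Primed replicate 2 was again the highest unheated array, and it stayed 4.19 below the lowest heated one.

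HSA32 read 11.24 and 11.06 in hsfa2 primed and triggered seedlings, 10.95 and 11.00 in hsfa2 triggered seedlings and 5.49 and 5.38 in hsfa2 naive seedlings. In the wild type it read 11.06, 11.06 and 10.81 in primed and triggered seedlings, 11.07, 10.76 and 10.87 in triggered seedlings, 5.65 and 8.07 in primed seedlings and 5.54, 5.35 and 6.36 in naive seedlings. It had the narrowest gap between heated and unheated arrays, 2.70, with primed replicate 2 well above the other unheated arrays.

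**Figure D1:**
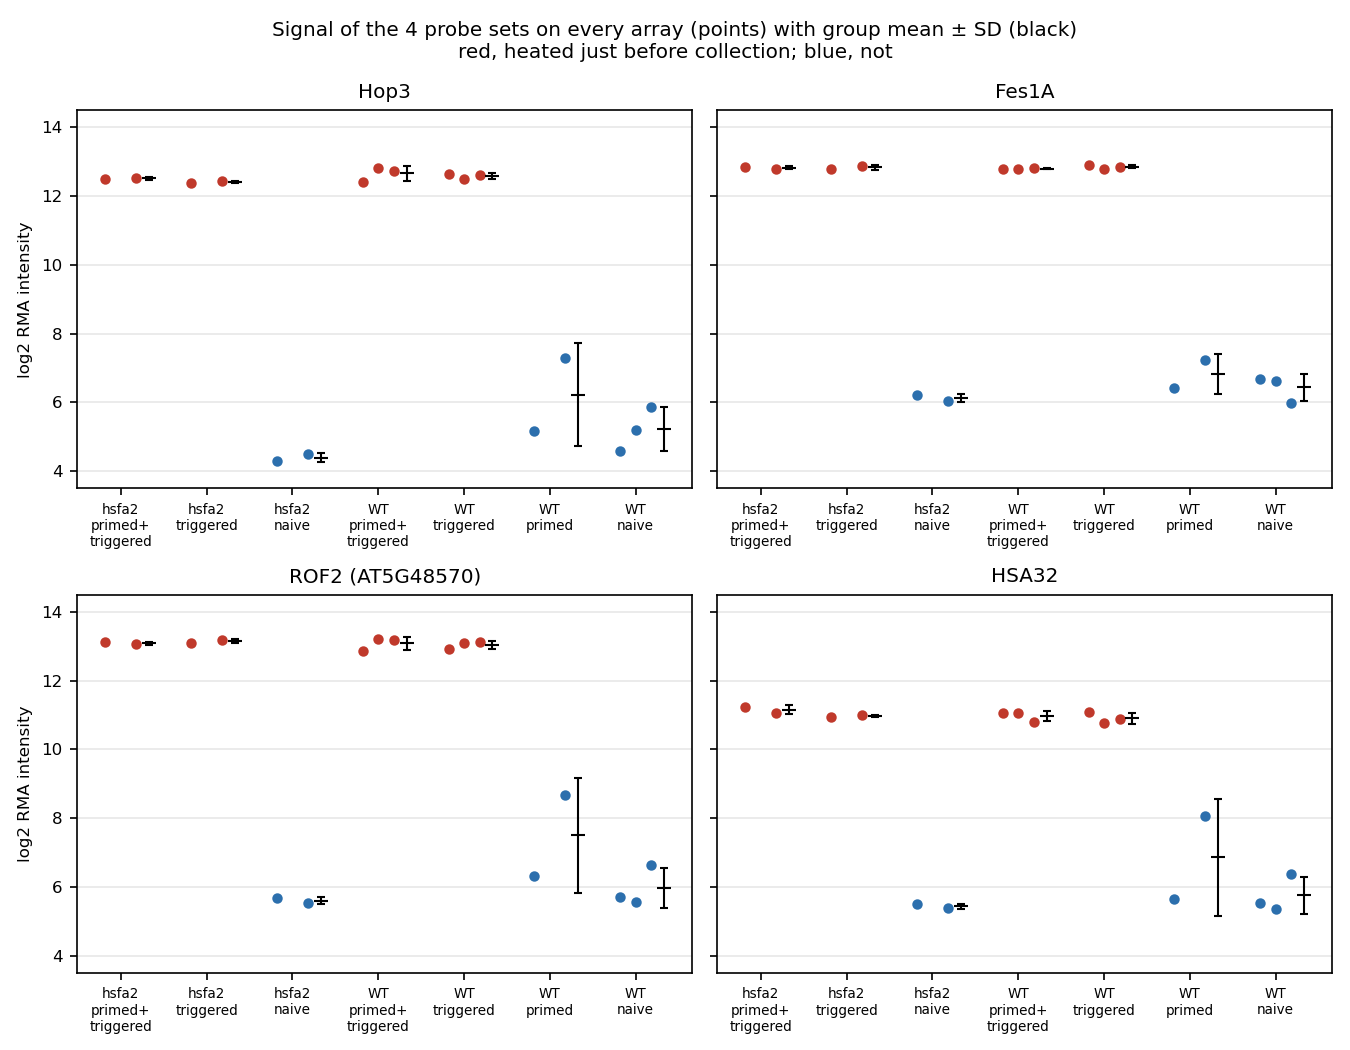
Log2 intensity of Hop3, Fes1A, ROF2 and HSA32 (vertical axes) on each of the 17 arrays by group (horizontal axes), with red points for seedlings heated just before collection, blue points for the others, and black bars for the group mean ± SD. The red points form a flat band in every panel, and the upper of the 2 wild-type primed points is the highest blue point in all 4 panels.

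In order of group means, hsfa2 naive was lowest, wild-type naive next and wild-type primed the third for all 4 genes, followed by the 4 heated groups in an order that differed from gene to gene. Most neighbours in that order overlapped array by array. The step between wild-type primed and the lowest heated group did not overlap for any of the 4 genes. That heated group was hsfa2 triggered for Hop3, triggered wild type for ROF2 and HSA32, and primed and triggered wild type for Fes1A. All 4 genes lay wholly higher in primed and triggered than in primed wild-type seedlings, as did 23.5% of all probe sets. For the other heated groups over the primed arrays that share was not computed. Of the remaining steps, those without overlap were hsfa2 naive below wild-type naive for Hop3, by 0.83, and hsfa2 primed and triggered above hsfa2 triggered for Hop3, by 0.10, and for HSA32, by 0.18. Over all probe sets, 10.1% lay wholly lower in hsfa2 naive than in wild-type naive seedlings. A share of 22.1% lay wholly higher in hsfa2 primed and triggered than in hsfa2 triggered seedlings.

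The first comparison asked what 1 h of heat does to seedlings without earlier heat. In the wild type all 4 genes were called higher in triggered than in naive seedlings, where 15.4% of all probe sets were called in either direction and 5.9% higher. Hop3 averaged 12.59 ± 0.08 in triggered and 5.22 ± 0.65 in naive seedlings (SD, n = 3 each), a rise of 7.37 (SE 0.41) or 165-fold (limma adjusted p = 4.61e-08). ROF2 averaged 13.04 ± 0.11 in triggered and 5.96 ± 0.58 in naive seedlings, a rise of 7.08 (SE 0.44) or 135-fold (limma adjusted p = 1.20e-07). These changes were the 20th and the 26th largest rises of the 22746 probe sets.

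Fes1A averaged 12.85 ± 0.05 in triggered and 6.44 ± 0.40 in naive wild-type seedlings (SD, n = 3 each), a rise of 6.42 (SE 0.20) or 85.5-fold (limma adjusted p = 1.33e-10). HSA32 averaged 10.90 ± 0.16 in triggered and 5.75 ± 0.54 in naive seedlings, a rise of 5.16 (SE 0.44) or 35.6-fold (limma adjusted p = 3.11e-06). They ranked 38th and 65th among the rises. The 95% confidence interval of the rise was 6.48 to 8.26 for Hop3, 6.14 to 8.02 for ROF2, 5.98 to 6.85 for Fes1A and 4.21 to 6.10 for HSA32. Naive replicate 3, the naive array with low bioB signal, was the highest naive array for Hop3, ROF2 and HSA32 and the lowest for Fes1A. Without it the rises were 7.70, 7.41, 5.46 and 6.19 for Hop3, ROF2, HSA32 and Fes1A, and all stayed called. In whole seedlings, more RNA per cell and more cells that express a gene cannot be told apart.

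In hsfa2 seedlings the same 4 genes were called higher after triggering, where 8.39% of all probe sets were called in either direction and 3.5% higher. The rise in triggered over naive hsfa2 seedlings was 8.02 (SE 0.51) for Hop3, 7.55 (SE 0.53) for ROF2, 6.72 (SE 0.25) for Fes1A and 5.54 (SE 0.54) for HSA32, with n = 2 each. The largest of the 4 limma adjusted p-values was 1.59e-05, for HSA32. As a difference of changes, hsfa2 minus wild type, the heat change was larger by 0.65 for Hop3, 0.47 for ROF2, 0.39 for HSA32 and 0.30 for Fes1A. None of these passed the test (limma adjusted p = 1.00 for each, with 0.0044% of all probe sets called), and the 95% interval ran from −0.76 to 2.06 for Hop3 and from −0.39 to 0.99 for Fes1A. Leaving out wild-type naive replicate 3 changed these differences to 0.32 for Hop3, 0.14 for ROF2, 0.08 for HSA32 and 0.53 for Fes1A.

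The levels under each condition were also compared between genotypes. In naive seedlings Hop3 averaged 4.39 ± 0.13 in hsfa2 (SD, n = 2) and 5.22 ± 0.65 in the wild type (SD, n = 3), a difference of −0.83 (SE 0.46, limma adjusted p = 0.929). Both hsfa2 arrays lay below all 3 wild-type arrays for Hop3, but groups of this size separated for 22.5% of all probe sets in this comparison. The differences of the other members were −0.37 for ROF2, −0.32 for Fes1A and −0.31 for HSA32, all negative, and each hsfa2 mean lay within the range of the 3 wild-type naive arrays. Their size depended on wild-type naive replicate 3, the naive array with low bioB signal. Without it the differences were −0.03 for ROF2, −0.01 for HSA32, −0.49 for Hop3 and −0.55 for Fes1A. None of the 4 was called, with 0% of all probe sets called by limma, 1317 at an unadjusted p under 0.05 and up to 37 called with array weights.

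In triggered seedlings the hsfa2 minus wild-type difference was −0.17 for Hop3, −0.01 for Fes1A, 0.11 for ROF2 and 0.07 for HSA32. After both treatments it was −0.14 for Hop3, 0.03 for Fes1A, −0.00 for ROF2 and 0.18 for HSA32. Both hsfa2 arrays lay below all 3 wild-type arrays for Hop3 after triggering, as for 10.5% of all probe sets, and above them for HSA32 after both treatments, as for 16.7%. None of the 4 genes was called in either comparison, where 0.00879% of all probe sets were called after triggering and 1.37% after both treatments. The 95% intervals were narrowest for Fes1A, −0.50 to 0.47 in triggered seedlings and −0.46 to 0.51 after both treatments, so a loss of 0.51 or more at the level of Fes1A lies outside both. For ROF2 the intervals reached −0.95 and −1.05, for HSA32 −0.98 and −0.88, and for Hop3 −1.17 and −1.14. A reduction of the heated level to 0.5 of that in the wild type, a log2 difference of −1, therefore lies outside both intervals for Fes1A and HSA32, but not for Hop3, and for ROF2 outside that of triggered seedlings. These intervals draw on the spread of all groups, unheated ones included. In triggered seedlings the SE for Hop3 was 0.46. Without the 3 arrays of low bioB signal it was 0.18 for Hop3, 0.13 for ROF2, 0.13 for HSA32 and 0.10 for Fes1A, with the differences unchanged.

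The comparison of primed with naive wild-type seedlings asked what was left of the first heat after 3 d. Hop3 averaged 6.23 ± 1.49 in primed (SD, n = 2) and 5.22 ± 0.65 in naive seedlings (SD, n = 3), a difference of 1.01 (SE 0.46). The difference was 1.54 (SE 0.49) for ROF2, 1.11 (SE 0.49) for HSA32 and 0.39 (SE 0.23) for Fes1A. None was called (limma adjusted p = 0.420 for ROF2 to 0.637 for Fes1A), where 0.0044% of all probe sets were called, 1 in number, and 2061 had an unadjusted p under 0.05. The count over all probe sets was 542 without naive replicate 3, 66 without primed replicate 2 and 40 without primed replicate 1. The group means hide that the 2 primed arrays differed from each other.

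In primed replicate 2 every member stood above all 3 naive arrays, and in primed replicate 1 every member stood within the range of the naive arrays, a pattern that 11.2% of all probe sets shared. Replicate 2 exceeded replicate 1 by 2.41 for HSA32, 2.36 for ROF2, 2.11 for Hop3 and 0.82 for Fes1A, against a median of 0.01 over all probe sets. A difference at least as large was found in 41 probe sets for HSA32, 47 for ROF2, 63 for Hop3 and 857 for Fes1A. Of the 19 measured chaperone partners described further on, 1 was at least 2-fold higher and 1 at least 2-fold lower in replicate 2, against 2.28% and 4.79% of all probe sets.

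The calls depended on primed replicate 1. Without it, a fit in which the lone primed array is assumed to vary like the other groups called 3 of the 4 genes higher in primed than in naive seedlings, where it called 0.176% of all probe sets in either direction: ROF2 by 2.72 (limma adjusted p = 0.00224), HSA32 by 2.32 (adjusted p = 0.00474) and Hop3 by 2.06 (adjusted p = 0.0359). Fes1A, at 0.80, was not called (adjusted p = 0.322). Without replicate 2 the differences were 0.35 for ROF2, −0.09 for HSA32, −0.05 for Hop3 and −0.02 for Fes1A, and none was called. Among the 3 arrays of low bioB signal alone, primed replicate 2 exceeded naive replicate 3 by 2.05 for ROF2, 1.71 for HSA32, 1.40 for Hop3 and 1.26 for Fes1A. Primed replicate 1 differed from the same naive array by −0.31 for ROF2, −0.71 for HSA32, −0.71 for Hop3 and 0.44 for Fes1A. With the low-bioB arrays as a block the differences were 0.87 for ROF2, 0.85 for Fes1A, 0.50 for HSA32 and 0.34 for Hop3, and none was called.

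**Figure D2:**
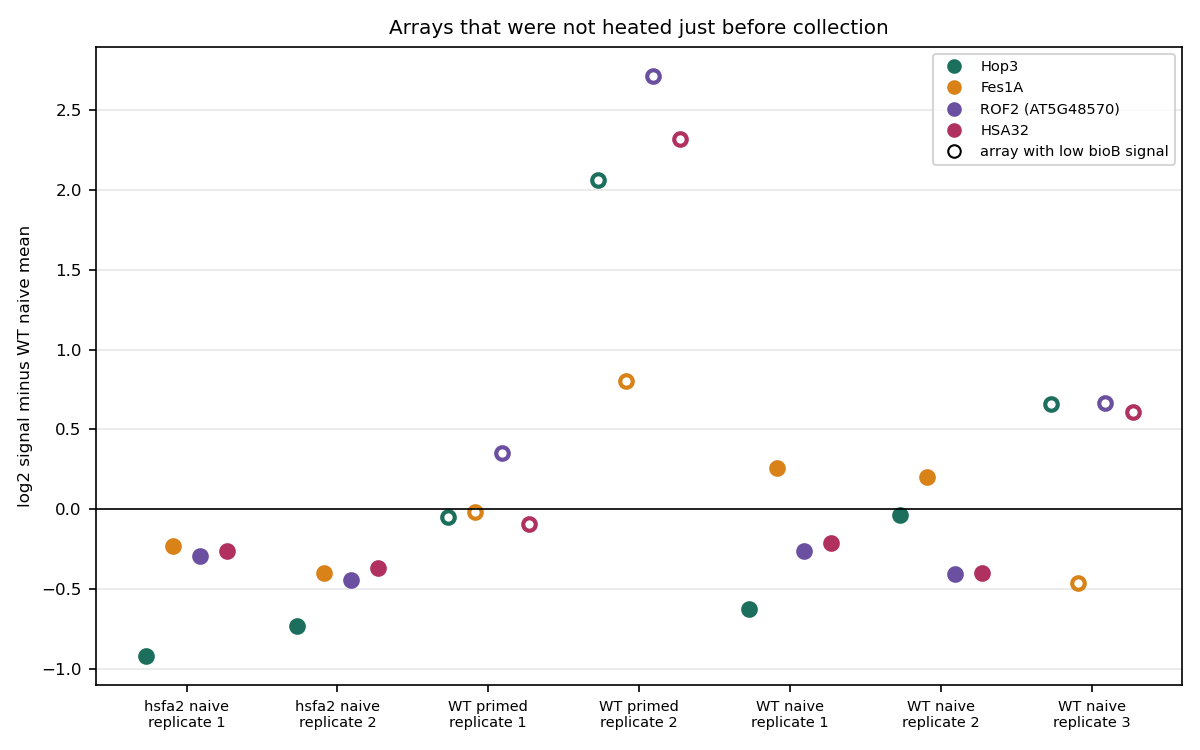
Log2 intensity of each gene (colours) on the 7 arrays that were not heated just before collection (horizontal axis), minus the mean of the wild-type naive arrays (vertical axis); open circles mark the 3 arrays with low bioB signal. Primed replicate 2 reaches 2.72 for ROF2, while primed replicate 1 lies between −0.09 and 0.35 for all 4 genes.

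Primed seedlings were then heated again. Relative to primed seedlings, primed and triggered wild-type seedlings had all 4 genes called higher, where 21.1% of all probe sets were called in either direction and 8.51% higher. The rise was 6.44 (SE 0.46) for Hop3, 5.98 (SE 0.23) for Fes1A, 5.59 (SE 0.49) for ROF2 and 4.12 (SE 0.49) for HSA32, the last with a limma adjusted p of 7.21e-05. Its size depended on which primed array was kept. Without replicate 1 the rise was 5.38 for Hop3, 5.57 for Fes1A, 4.41 for ROF2 and 2.91 for HSA32, and without replicate 2 it was 7.49, 6.39, 6.77 and 5.32 for the same genes, all called in both cases. Both primed arrays had low bioB signal and no primed and triggered array did. With the low-bioB arrays as a block, a term that rests on wild-type naive replicate 3, the rise was 7.43 for Hop3, 6.59 for ROF2, 5.29 for Fes1A and 5.03 for HSA32, and all 4 stayed called (the largest limma adjusted p was 0.00257, for HSA32).

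The rise on heating was smaller in primed than in unprimed wild-type seedlings by the point estimates, with a difference of changes of −1.49 (SE 0.65) for ROF2, −1.04 (SE 0.66) for HSA32, −0.93 (SE 0.62) for Hop3 and −0.44 (SE 0.30) for Fes1A. None of the 4 was called (limma adjusted p = 0.990 for each), where 0.0176% of all probe sets were called, 4 in number, and 1065 had an unadjusted p under 0.05. Without primed replicate 1, 2 of the 4 were called, ROF2 at −2.67 (adjusted p = 0.0200) and HSA32 at −2.25 (adjusted p = 0.0415), where 0.127% of all probe sets were called, 29 in number. Without primed replicate 2 the values were −0.31 for ROF2, 0.17 for HSA32, 0.13 for Hop3 and −0.03 for Fes1A.

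The level reached after heat was not detectably changed by an earlier heat in any of the 4 genes. Hop3 averaged 12.66 ± 0.22 in primed and triggered and 12.59 ± 0.08 in triggered wild-type seedlings (SD, n = 3 each). The difference was 0.07 for Hop3, 0.07 for HSA32, 0.05 for ROF2 and −0.05 for Fes1A, and the arrays of the 2 groups overlapped for each gene. Arrays of these groups with the same replicate number deviated together. Within these 3 pairs Fes1A differed by −0.09, −0.03 and −0.03, while the other 3 genes had pairs of both signs. The share of all probe sets with 3 pairs of the same sign was not computed. With the replicate numbers as a block none of the 4 was called either. None was called (limma adjusted p = 1.00 for each), where 0.308% of all probe sets were called, 70 in number, and 1098 had an unadjusted p under 0.05. The 95% interval was −0.49 to 0.39 for Fes1A, −0.82 to 0.97 for Hop3, −0.89 to 0.99 for ROF2 and −0.87 to 1.02 for HSA32. A gain to 2-fold of the triggered level, a log2 difference of 1, lies outside the intervals of Fes1A, Hop3 and ROF2 and just inside that of HSA32. The SE that sets these intervals draws on the spread of all groups, and without the 3 arrays of low bioB signal it was 0.09 for Fes1A, 0.12 for ROF2, 0.12 for HSA32 and 0.16 for Hop3, with the differences unchanged.

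In hsfa2 seedlings the same comparison gave 0.18 for HSA32, 0.10 for Hop3, −0.01 for Fes1A and −0.06 for ROF2. For HSA32 and Hop3 both primed and triggered arrays lay above both triggered arrays, as 22.1% of all probe sets did with 2 arrays in each group. None of the 4 was called, with 0% of all probe sets called by limma, 1331 at an unadjusted p under 0.05 and 14 called with array weights. The difference of this effect between hsfa2 and the wild type was 0.10 for HSA32, 0.04 for Fes1A, 0.03 for Hop3 and −0.11 for ROF2, and none of the 4 was called, where 0.0484% of all probe sets were called.

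**Figure D3:**
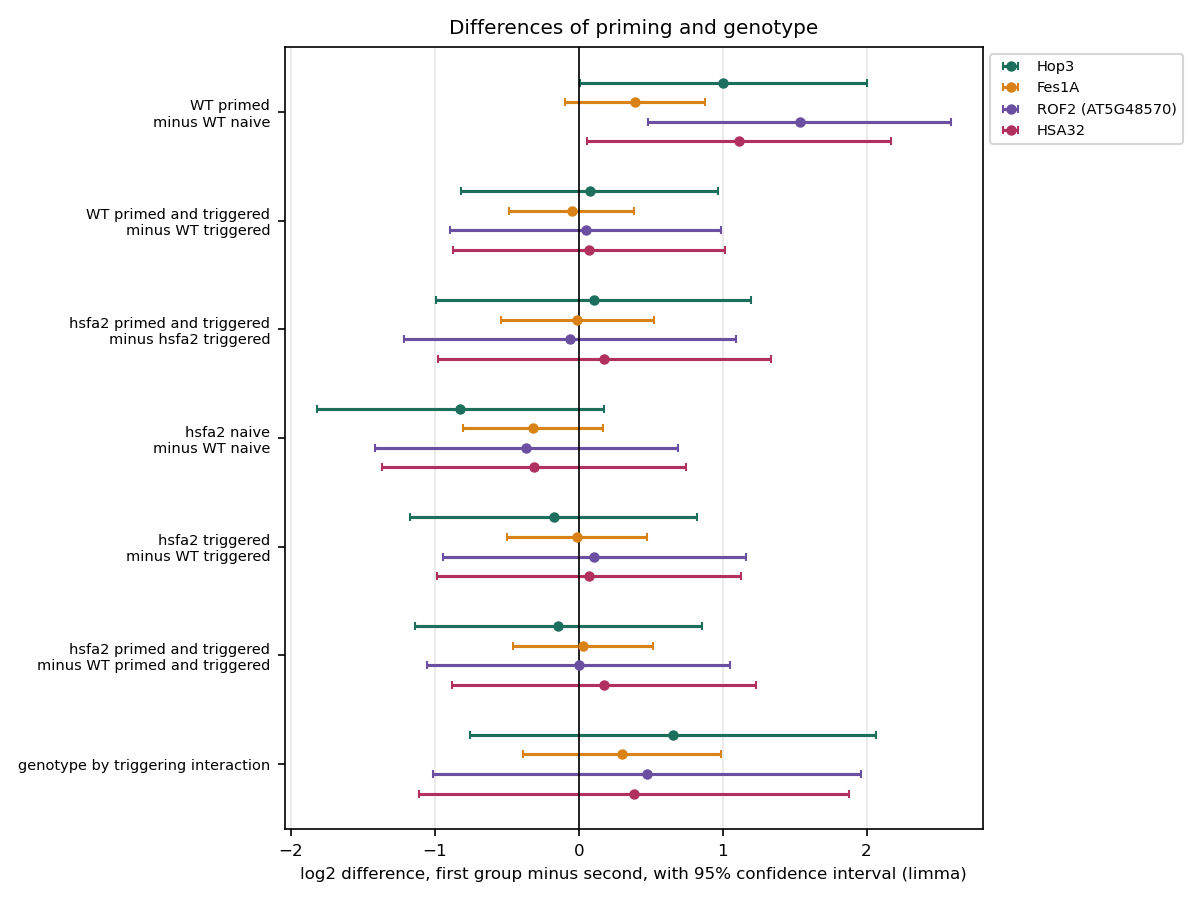
Log2 differences (horizontal axis) of the 4 genes (colours) for 7 comparisons of priming and genotype (vertical axis), each as the first group minus the second, with limma's 95% confidence interval as the bar. Fes1A has the shortest bars in all 7 comparisons, and only the comparison of primed with naive wild-type seedlings has bars wholly above 0, before adjustment for multiple tests.

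The range of the 10 heated arrays was narrowest for Fes1A and reached 1.39-fold for HSA32. Fes1A lay between 7030 and 7632 intensity units with a median of 7215, so that the highest array was 1.09-fold the lowest. Its SD over the 10 arrays was 0.04 log2 units, against a median of 0.22 over all probe sets, and 11 of the 22746 probe sets, 0.0484%, had a lower one. Among the 214 probe sets whose mean over the heated arrays was at least 12, 0.935% had a lower SD than Fes1A. The median SD of those 214 was 0.14 log2 units.

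ROF2 lay between 7438 and 9516 units on the heated arrays (1.28-fold), Hop3 between 5368 and 7275 (1.36-fold) and HSA32 between 1738 and 2417 (1.39-fold). Among the same 214 bright probe sets, 35.0% had a lower SD than ROF2 and 53.3% a lower one than Hop3. HSA32, which was below that brightness, had an SD of 0.14, and 18.9% of all probe sets had a lower one. The highest log2 value on any array was 14.26, above the 13.22 that ROF2 reached. Whether the signals of the 4 genes were compressed near the top of the scale was not tested.

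Without heat just before collection all 4 genes spread more widely. Over the 7 unheated arrays ROF2 spanned 45.8 to 409 units (8.92-fold), Hop3 19.7 to 156 (7.90-fold), HSA32 40.7 to 268 (6.58-fold) and Fes1A 62.9 to 151 (2.40-fold). With primed replicate 2 set aside, the spans were 2.15-fold for ROF2, 2.99-fold for Hop3, 2.02-fold for HSA32 and 1.64-fold for Fes1A. The SD of Hop3 over those 6 arrays, 0.59, was still above that of 94.1% of all probe sets. Those arrays mix wild-type naive, wild-type primed and hsfa2 naive seedlings and include arrays of low bioB signal, so this SD is not a spread of replicates. A comparison with probe sets of a similar level was not made.

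The size of the heat change was compared between members on the 5 triggered and 5 naive arrays of both genotypes, in 10 pairs with p-values adjusted over them. The members were chosen with earlier results of these data known, so these p-values are not independent support for unequal changes. Hop3 changed by 7.63, ROF2 by 7.27, Fes1A by 6.54 and HSA32 by 5.31. HSA32 changed less than each other member, by 2.32 than Hop3, by 1.96 than ROF2 and by 1.23 than Fes1A, and in each of these pairs the log2 ratio was higher on all 5 triggered than on all 5 naive arrays (exact permutation test, two-sided, p = 0.00794, the smallest these arrays allow, adjusted p = 0.0113).

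Hop3 changed by 1.09 more than Fes1A and ROF2 by 0.73 more than Fes1A, and neither passed after adjustment (exact permutation test, p = 0.0476 and adjusted p = 0.0529 for each). The difference of 0.36 between Hop3 and ROF2 did not pass (exact permutation test, p = 0.0952). In both genotypes taken alone the 6 differences between members kept their sign, for example 2.48 in hsfa2 and 2.21 in the wild type for Hop3 minus HSA32. Since probe sets differ in how they respond to the amount of RNA, these values compare signals and not numbers of transcripts.

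The closest relatives of Hop3 and Fes1A rose less or were not called. Hop2, another Hop protein, read 11.10 to 11.73 in triggered and 7.89 to 8.57 in naive wild-type seedlings (n = 3 each), a rise of 3.13 (SE 0.21, limma adjusted p = 3.34e-07). Hop1 read 8.17 to 8.65 in triggered and 7.73 to 8.43 in naive seedlings, a difference of 0.32 (SE 0.19, limma adjusted p = 0.323). Over both genotypes Hop3 changed by 4.61 more than Hop2 and by 7.40 more than Hop1, with the log2 ratio higher on all 5 triggered arrays in both pairs (exact permutation test, two-sided, p = 0.00794, adjusted p = 0.0113). Hop3 was chosen with earlier results of these data known, so these p-values are not independent support for its larger change.

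Fes1B read 7.36 to 8.67 in triggered and 5.35 to 8.70 in naive wild-type seedlings, a difference of 0.54 (SE 0.78, limma adjusted p = 0.709) whose sign depended on naive replicate 3, since it was −0.44 without that array. Fes1C read 7.56 to 8.16 in triggered and 6.67 to 8.08 in naive seedlings, a difference of 0.52 (SE 0.35, limma adjusted p = 0.376). Over both genotypes Fes1A changed by 6.47 more than Fes1B and by 6.26 more than Fes1C (exact permutation test, two-sided, p = 0.00794, adjusted p = 0.0113). Fes1A was chosen in the same way as Hop3, and the same limit holds for these p-values. ROF1, the relative of ROF2, is not analysed here.

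A list of 62 chaperones and co-chaperones around HSP70 and HSP90, the members left out, had 19 entries with a probe set of a single gene. Of its 7 HSP90, 7 BAG, 2 HSP70-interacting and 3 HSP100 entries 0 were measured, and of its 17 HSP70 and HSP110 entries 4 were. The members could therefore not be ranked against HSP90, HSP100 or most HSP70 genes. The list was chosen with earlier results of these data known, so its shares of calls are descriptive. In triggered against naive wild-type seedlings 13 of the 19 were called higher (68.4%, against 5.9% of all probe sets) and 0 lower, with a median of 1.64 over the 19 against 0.00 over all probe sets. The 4 measured entries of the HSP70 and HSP110 group and the 4 of the HSP90 co-chaperones and immunophilins all rose, 4 of 7 J proteins did, and of the 4 Hop and Fes1 relatives only Hop2. The largest rises were those of the J protein AT2G20560 at 7.54 (SE 0.33), the J protein AT3G14200 at 3.90 (SE 0.17) and AT3G12050 of the HSP90 co-chaperones at 3.87 (SE 0.18). Among the 19 measured partners only AT2G20560 rose by more than any of the 4 members in the wild type, 7.54 against 7.37 for Hop3.

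In hsfa2, 11 of the 19 partners were called higher in triggered than in naive seedlings (57.9%, against 3.5% of all probe sets), all of them among the 13 of the wild type, with a median of 1.74. AT2G20560 rose by 7.66 (SE 0.41), SGT1A, an HSP90 co-chaperone, by 4.07 (SE 0.17) and AT3G12050 by 3.83 (SE 0.22). On a second heat, primed and triggered against primed wild-type seedlings, 12 of 19 were called higher (63.2%, against 8.51% of all probe sets), 11 of them shared with the 13, with AT2G20560 at 6.12 (SE 0.37), AT3G14200 at 3.97 (SE 0.19) and SGT1A at 3.83 (SE 0.15). None of the 19 was called in primed against naive wild-type seedlings.

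**Figure D4:**
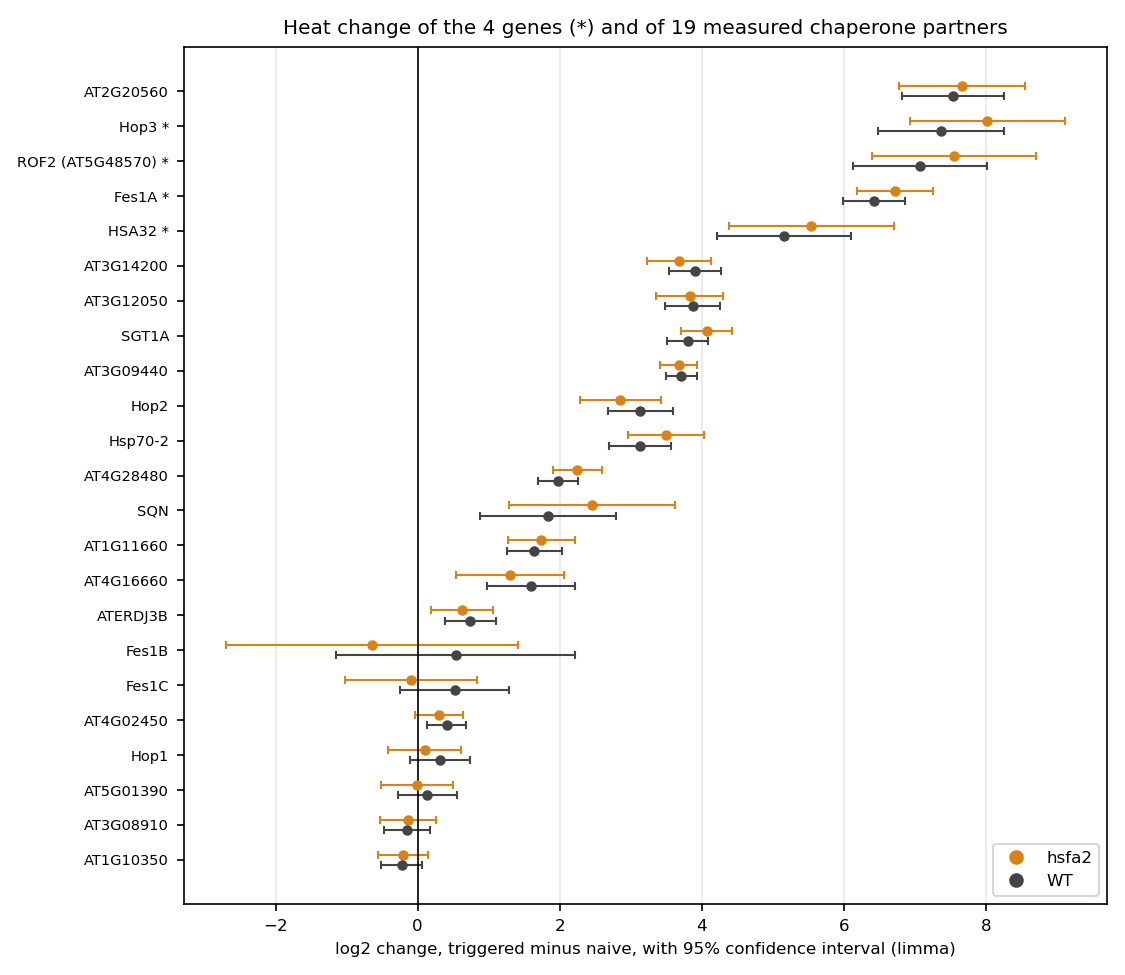
Log2 change of the 4 genes (asterisks) and of the 19 measured chaperone partners (rows) in triggered minus naive seedlings (horizontal axis), with orange points for hsfa2, grey points for the wild type and limma's 95% confidence interval as the bar. AT2G20560 and the 4 genes lie above 5 in both genotypes, and every other measured partner lies below 4.1.

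Where the 4 members showed no called effect of priming or of genotype after heat, AT1G11660, an entry of the HSP70 and HSP110 group, did. It averaged 11.00 ± 0.28 in primed and triggered and 9.70 ± 0.27 in triggered wild-type seedlings (SD, n = 3 each), a rise of 1.30 (SE 0.18, limma adjusted p = 0.00893). In hsfa2 it averaged 8.98 ± 0.26 in primed and triggered and 9.59 ± 0.22 in triggered seedlings (SD, n = 2 each). After both treatments it was lower in hsfa2 than in the wild type by 2.02 (SE 0.20, limma adjusted p = 0.000445). AT4G16660 of the same group was lower in hsfa2 after both treatments by 1.71 (SE 0.32, limma adjusted p = 0.0224). These were 1 of 19 partners higher with priming (5.26%) and 2 of 19 lower in hsfa2 after both treatments (10.5%). Of all probe sets 0.308% and 1.37% were called in these comparisons, in either direction. In triggered hsfa2 against triggered wild-type seedlings 0 of 19 were called, against 0.00879% of all probe sets. The call on AT1G11660 with priming was lost when primed and triggered replicate 1 or 3 or triggered replicate 1 or 2 of the wild type was left out, with rises of 1.17 to 1.27 and limma adjusted p-values up to 0.0604. The call on AT4G16660 was lost without wild-type primed and triggered replicate 1 or 3 or either hsfa2 array of that treatment, with differences of −1.98 to −1.44 and limma adjusted p-values up to 0.372.

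Probe sets with the most similar profiles were ranked for each member among 13512 others with a single gene, by the root mean square distance over the 17 arrays after each had been set relative to its own wild-type naive mean. The nearest to Hop3 were AT1G54050 at 0.31 log2 units, ROF2 at 0.35, AT2G20560 at 0.37, AT5G25450 at 0.59 and AT5G37670 at 0.70. The nearest to ROF2 were AT1G54050 at 0.25, Hop3 at 0.35, AT2G20560 at 0.38, AT5G25450 at 0.42 and AT5G37670 at 0.66. Hop3 and ROF2 were each the other's nearest but for AT1G54050, and they shared the other 4 places.

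Fes1A had other neighbours, with AT5G10695 at 0.35, AT5G35320 at 0.36, nad6 at 0.44, AT1G66080 at 0.48 and AT1G10260 at 0.52. The probe sets of nad6 and AT1G10260 are of a type that can match more than 1 transcript. The nearest to HSA32 were AT1G72660 at 0.48, AT5G12110 at 0.50, AT4G23493 at 0.53, AT1G67360 at 0.55 and AT5G47830 at 0.56, and none of them was near another member. Seen from Hop3, Fes1A was the 11th and HSA32 the 25th nearest. The distances describe 17 arrays that share their treatments, and the size of the heat change weighs most in them.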

How the data were processed

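Whole Arabidopsis seedlings were profiled on 17 Affymetrix arrays in 7 groups. The deposited table holds linear intensity values that the authors computed, per the submitters' processing notes, by RMA, a method that corrects background, normalizes across arrays and summarises the probes; its version is not given in the sources used here. The intensities, 3.94 to 19602 with 0 zeros, were put on the log2 scale without a pseudocount, and no further normalization was applied. Since RMA equalises the arrays, a shift in the total RNA of a seedling is not visible. After removal of 64 control probe sets, 22746 were tested.

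Probe sets were named through the platform annotation (13513 with 1 gene, 503 with several, 8730 not listed) and updated through RefSeq (assembly TAIR10.1), where 13436 matched. No coordinates are given, because the values are not tied to a build. The members and the gene lists were chosen with earlier results of these data known.

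With limma 3.58.1 (R 4.3.3) 1 mean was fitted to each group of the 17 arrays (10 residual and 2.92 prior degrees of freedom), and 12 comparisons were tested with Benjamini-Hochberg adjustment over all probe sets. The fit was checked on simulated data. Differences in heat change between members were tested by exact permutation over arrays. Named genes are the members, measured relatives of the Hop, Fes1 and ROF families, up to 3 called rises and 3 called falls of the chaperone partner list in each comparison, and the 5 nearest profiles of each member. Over 45 pairs of arrays with the same replicate number, deviations from the group means correlated at −0.43 to 0.66, with 15 pairs over 0.1. The numbers paired the primed and triggered with the triggered wild-type arrays (0.56 to 0.66 in 3 pairs), by this hint from the data and not by the labels, and no other groups of 3. No pair of arrays held identical values. The number of arrays limits the precision. Alternatives covered scaling, the arrays entering the fit, blocks for replicate number and for bioB signal, options of the variance estimate, array weights, a filter on dim probe sets, an offset of 16 and leaving out each array. Marker lists covered green tissue, root and root hair, guard cell and seed storage. FMA, the measured guard cell gene, was not called lower after triggering in the wild type (−0.69), and of 21 heat shock factors none had a probe set with a single gene.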

Additional observations from a re-analysis of the deposited data

Results flagged for a closer look

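The effect of priming on the level after heat differed between the genotypes for AT1G11660, an entry of the HSP70 and HSP110 group of the chaperone partner list. The change in primed and triggered against triggered seedlings, taken as hsfa2 minus wild type, was −1.91 (SE 0.28, limma adjusted p = 0.0339, n = 2 arrays in each hsfa2 group and 3 in each wild-type group). Leaving out each of the 17 arrays in turn gave −2.09 to −1.72, at limma adjusted p-values up to 0.333. It stayed called only without wild-type primed and triggered replicate 2, triggered replicate 3, primed replicate 1 or 2, or naive replicate 3, and was lost without any of the other arrays.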

How the results depend on the processing

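The 4 genes were called higher after heat in triggered wild-type, triggered hsfa2 and primed and triggered wild-type seedlings under every alternative run, leaving out each array included. The number called with priming alone was 0 to 3 over the fits without 1 array, and that of the difference in heat change with priming 0 to 2, because of primed replicate 1; neither changed under another alternative.

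Signs of small uncalled differences turned. For hsfa2 against the wild type after both treatments, ROF2 was 0.069 with array weights, 0.032 after quantile normalization and 0.14 with a replicate block, and Fes1A −0.027 with centred arrays and −0.046 with a replicate block. Fes1A was 7.75e-06 in hsfa2 primed and triggered against triggered seedlings with centred arrays, and 0.081 for triggered hsfa2 against wild type after quantile normalization, which also gave −0.068 for Fes1A and −0.013 for Hop3 in the difference of the priming effect between genotypes. In wild-type seedlings with both treatments against triggered ones Hop3 was −0.031 with array weights. The difference of Fes1B on heating was −0.44 with low-bioB arrays as a block and without those 3 arrays, an alternative added after seeing the data.

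Without 1 array, primed minus naive spanned −0.051 to 2.06 for Hop3, −0.016 to 0.80 for Fes1A and −0.095 to 2.32 for HSA32, and the difference in heat change with priming −1.99 to 0.13 for Hop3 and −2.25 to 0.17 for HSA32. Primed and triggered minus triggered spanned −0.0087 to 0.20 for Hop3 and −0.019 to 0.16 for ROF2 in the wild type and −0.060 to 0.041 for Fes1A in hsfa2. Hsfa2 minus wild type spanned −0.065 to 0.036 for Fes1A after triggering, and −0.00050 to 0.053 for Fes1A and −0.11 to 0.065 for ROF2 after both treatments. The genotype difference of the priming effect spanned −0.096 to 0.11 for Hop3 and −0.010 to 0.091 for Fes1A, and Fes1B on heating spanned −0.44 to 1.24. The cause was not tested.

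With a replicate block no call on the 4 genes changed, nor did one with a block over the paired heated wild-type arrays alone, added after seeing the data, which gave 99 calls over all probe sets with priming and 13 in the genotype difference and kept both calls on AT1G11660. With only the compared arrays, AT1G11660 was no longer called with priming (adjusted p = 0.180), in hsfa2 after both treatments (0.0523) or in the genotype difference (0.148, and just above the threshold after quantile normalization), nor AT4G16660 (0.144). Centring moved the median change of all probe sets on heating to 0.16 and the higher calls to 65.5% of all calls in triggered against naive wild-type seedlings, against 38.3% as deposited; the 4 rises, all over 4, exceed that shift. Calls over all probe sets moved by more than 1.5 times in places: with only the compared arrays, 1832 against 3502 on heating, 4 against 70 with priming and 5 against 311 between genotypes after both treatments, and 954 against 4802 in primed and triggered against primed seedlings with the low-bioB block. Others rose: on heating in hsfa2, 5084 with only the compared arrays and 5771 with array weights against 1908, and between genotypes after both treatments 1726 with array weights against 311. The 2 primed arrays and the 2 arrays in each hsfa2 group limit the intervals.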
